A study of Mus musculus with 6 samples.

Results

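The genes Pnoc, Pdyn, Tac1 and Oprd1 encode precursors of nociceptin, of the dynorphins and of substance P, and the delta opioid receptor. Their probes were taken by gene symbol in the platform annotation, which gave 5 of the 10080 probes and 4 of 8726 named genes. Tac1 had 2 probes, both annotated with the same transcript, and the other genes had 1 each. The genes were selected on their function and on their collagen over control log2 ratios, detection and block positions, all known from earlier work on these data, so these ratios, the signals and the detection are given as a description and no test of them is used as support. Each array of the study set a collagen sample directly against a control sample, as hypothalamus RNA of male DBA/1 mice aged 8 weeks. The collagen mice had been injected intradermally with type II collagen (100 ul) mixed with complete Freund's adjuvant (100 ul), and the control mice with the adjuvant alone (200 ul). Collagen and the volume of adjuvant therefore cannot be told apart. All mice, the controls included, were given lipopolysaccharide at day 24. There were 3 biological replicates with 2 arrays each, 1 with collagen in Cy5 and 1 with collagen in Cy3, and 3 scans of each array. The labels do not say whether a replicate was 1 mouse or a pool.

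Opioid peptides are cut out of larger precursor proteins by prohormone convertases and carboxypeptidases in secretory vesicles. Pnoc yields nociceptin, which acts on its own receptor, related to the opioid receptors in sequence but not bound by the classical opioid peptides. Pdyn yields the dynorphins, which prefer the kappa receptor and are made in the hypothalamus by vasopressin neurons and by arcuate kisspeptin neurons. Tac1 yields substance P and neurokinin A, which act on tachykinin receptors and are known for their part in pain signalling and neurogenic inflammation. Oprd1 is the receptor that enkephalins prefer, and it couples to inhibitory G proteins.

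Collagen over control was read with channel A as Cy3 and channel B as Cy5, which follows the channel order of the labels but is not stated in them. If it were the other way round, every sign below would turn. A ratio was the log2 ratio of collagen over control after loess smoothing against intensity over the whole array, averaged over scans. Arrays had a ratio for 4650 to 8562 spots, and 2316 probes had one on all 6 arrays. Over those probes, the 2 arrays of a replicate correlated at -0.2, -0.75 and -0.32 once turned to collagen over control, so a spot's ratio of channel B over channel A tended to be alike on both arrays. The swap of dyes within a replicate was taken from the labels. Where a pair had in fact not been swapped, 1 of its arrays would change sign, and with it the replicate mean and the counts of arrays higher or lower. Ratios had an SD of 1.66 on the collagen-Cy3 array of replicate 1, against 0.382 to 0.671 elsewhere. With limma, 0 of 2316 probes passed an adjusted p of 0.05 (0.0%), none of the 4 tested probes of these genes among them, and 25 probes had an unadjusted p under 0.05 (1.08%). The 9 hypothalamic marker genes looked for were all on the array, and 4 of them, Oxt, Pmch, Gnrh1 and Gal, had a ratio on 6 arrays. Of 7 striatal markers, whose tissue is rich in Pdyn and Tac1 transcripts, 2 were on the array and 0 were measured on all arrays.

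Of the 4 tested probes 2 were higher and 2 lower with collagen, with a median log2 ratio of 0.39, against 781 higher and 1535 lower and a median of -0.09 over all tested probes. Pnoc and the Tac1 probe tested stood near 1.0, and Pdyn and Oprd1 below 0. Replicate 1 lay farther from 0 than replicates 2 and 3 for each of the 4, and within it the array with collagen in Cy3 was the more extreme. Leaving out that array, a setting chosen after seeing the data, gave a mean of 0.40 for Pnoc, -0.16 for Pdyn, -0.13 for Tac1 and 0.14 for Oprd1. Tac1 and Oprd1 thus changed sign without it. This setting leaves replicate 1 with collagen in Cy5 only, so its dyes are no longer balanced. Without both arrays of replicate 1 all 4 kept their signs, at 0.46 for Pnoc, -0.24 for Pdyn, 0.23 for Tac1 and -0.07 for Oprd1.

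Pnoc (Entrez Gene 18155, probe 660) lay in the first row and the fourth column of printing blocks. With collagen in Cy5 its log2 ratio was 0.28, 0.50 and 0.23 in replicates 1, 2 and 3, and with collagen in Cy3 it was 4.11, 0.50 and 0.60. The probe was higher with collagen on 6 of 6 arrays, as were 6 of the 2316 tested probes (0.259%), but 1 array stood far above the other 5. The mean over replicates was 1.04 ± 0.38 (SE, n = 3), with 2.19, 0.50 and 0.41 in replicates 1, 2 and 3. Before normalization Pnoc was lower with collagen in replicates 1 and 2 with collagen in Cy5, at -0.36 and -0.16. The curve fitted to the whole array moved these values by 0.64 and 0.66. On the first of these arrays the normalized scans ran from -0.03 to 0.43.

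On the collagen-Cy3 array of replicate 1 the spots around Pnoc were high too. The median ratio of the block was 3.66 there, and 28 of the 103 other measured spots of the block were higher than Pnoc. On the collagen-Cy3 array of replicate 2 the block median was -0.25, where Pnoc was at 0.50. The median background of the block on the first of these arrays was 14837 per pixel in channel A, which held collagen, and 796.5 in channel B, which held control. On the other replicate 1 array the same block had 227 in collagen, then in channel B, and 463 in control, in channel A. With loess fitted within each block, Pnoc was at 0.16 on the collagen-Cy3 array of replicate 1 and between 0.11 and 0.64 on the 6 arrays, all positive, with a mean of 0.29. Within its block it lay above 59.7% and 58.2% of the other spots in replicates 1 and 3 with collagen in Cy5. It was most raised in replicate 2 with collagen in Cy3, where it lay above 94.0% of the other spots. The scans of that array differed the most for Pnoc, from 0.11 to 0.81 with loess over the whole array.

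**Figure D1:**
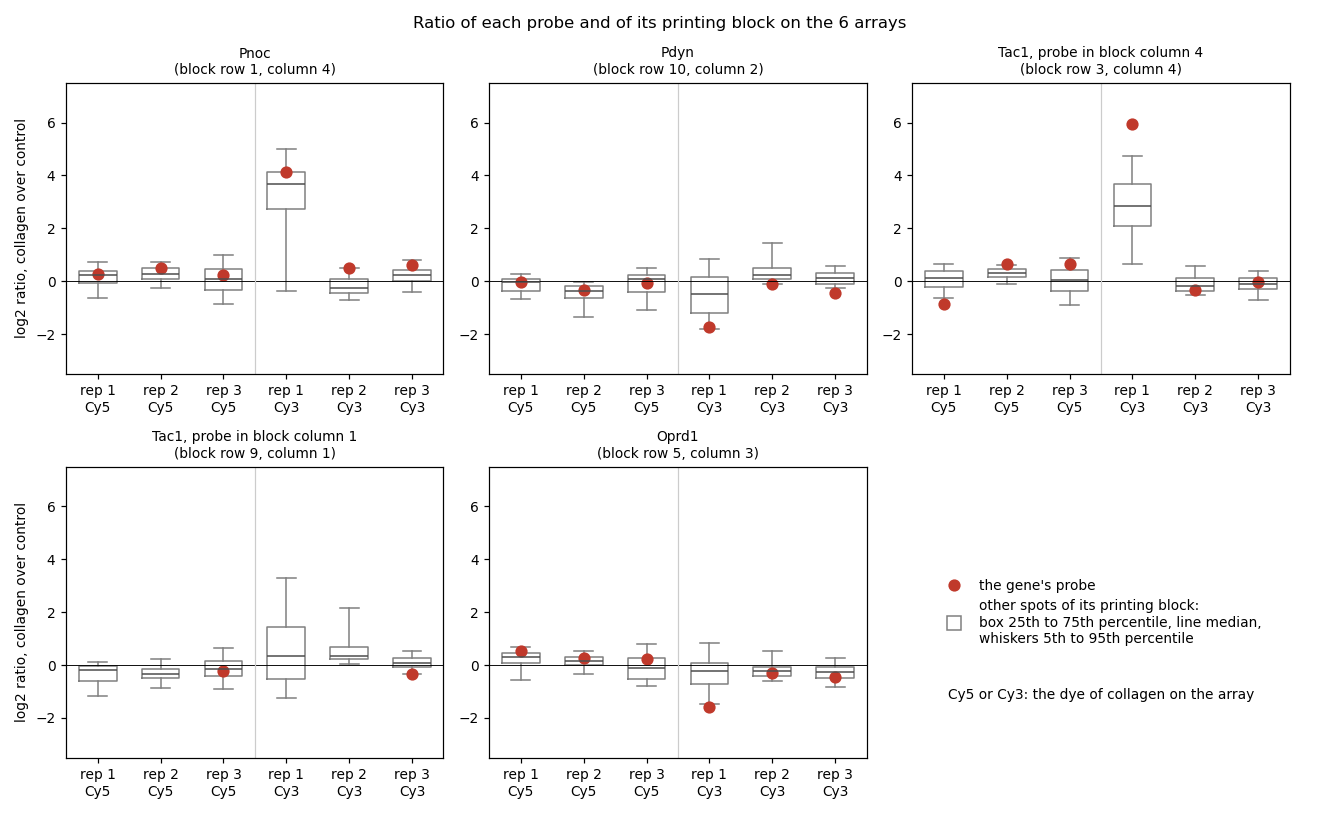
The y axis is the log2 ratio of collagen over control and the x axis the 6 arrays, first with collagen in Cy5, then in Cy3. Red points are the probe, and boxes are the other measured spots of its printing block. On the collagen-Cy3 array of replicate 1, the blocks of Pnoc and of the Tac1 probe in the fourth column have medians of 3.66 and 2.87, and the block of Pdyn has a median of -0.47.

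Pnoc was a dim spot. Its foreground was 1.51 to 3.45 times the local background in collagen and 1.39 to 2.85 times in control. In replicate 3 it was kept in both channels in 2 of 3 scans with collagen in Cy5 and in 1 of 3 with collagen in Cy3. The quality score of the scanner software, on a scale of 0 to 1, had a median of 0.122 and 0.0911 on those arrays. Repeated scans of 1 array differed by a median of 0.22 and by up to 0.69 on the log2 scale. The largest of these differences exceeded every ratio of Pnoc outside the collagen-Cy3 array of replicate 1. The authors' deposited table gave Pnoc on 5 arrays, as log ratios of 0.17, 0.13 and -0.13 in replicates 1, 2 and 3 with collagen in Cy5. With collagen in Cy3 it gave 0.015 and 0.055 in replicates 2 and 3. That table states neither its base nor its direction. It was read as natural logs of collagen over control, and on this reading Pnoc had both signs.

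Pdyn (Entrez Gene 18610, probe 7838) lay in block row 10 and block column 2. Its log2 ratio was -0.013, -0.34 and -0.09 in replicates 1, 2 and 3 with collagen in Cy5, and -1.73, -0.10 and -0.43 with collagen in Cy3. It was lower with collagen on 6 of 6 arrays, as were 12 of 2316 tested probes (0.518%), and 1 array again stood apart. The mean was -0.45 ± 0.20 (SE, n = 3), and the median of the 6 arrays was -0.22. Against the median of its block Pdyn was lower on 4 arrays and higher on 2, those of replicates 1 and 2 with collagen in Cy5. In replicate 2 that block median was -0.37. Repeated scans of 1 array differed by a median of 0.26 and by up to 0.47 on the log2 scale, and on 3 of the 6 arrays the scans of Pdyn lay on both sides of 0.

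Pdyn was measured in both channels in all 18 scans. Foreground was 6.64, 2.73 and 1.86 times background in collagen, against 2.94, 3.03 and 1.61 times in control, in replicates 1, 2 and 3 with collagen in Cy5. With collagen in Cy3 it was 2.04, 2.39 and 1.70 times in collagen and 3.68, 4.04 and 2.12 times in control. In replicates 1 and 3 channel B thus stood higher over its background on both arrays, so the sample that was higher changed with the dye. In replicate 2 control stood higher on both arrays.

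The low ratio of Pdyn in replicate 1 was smaller before normalization. On the array with collagen in Cy3 it was then -0.38, and the curve fitted to the whole array moved it by -1.35. The block median there was -0.47, and 125 of the 134 other spots of the block were higher than Pdyn. With loess within blocks Pdyn was at -0.54 on that array, and on the 6 arrays it was lower with collagen on 5 and higher on 1, at 0.14. The mean was then -0.21. Without normalization, a setting chosen after seeing the data, it was -0.25, with 4 arrays lower and 2 higher. The authors' deposited table gave 0.033, 0.015 and 0.013 with collagen in Cy5 and -0.34, -0.11 and -0.27 with collagen in Cy3 for replicates 1, 2 and 3. In that table Pdyn was therefore lower with collagen on 3 arrays, all of 1 dye orientation.

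**Figure D2:**
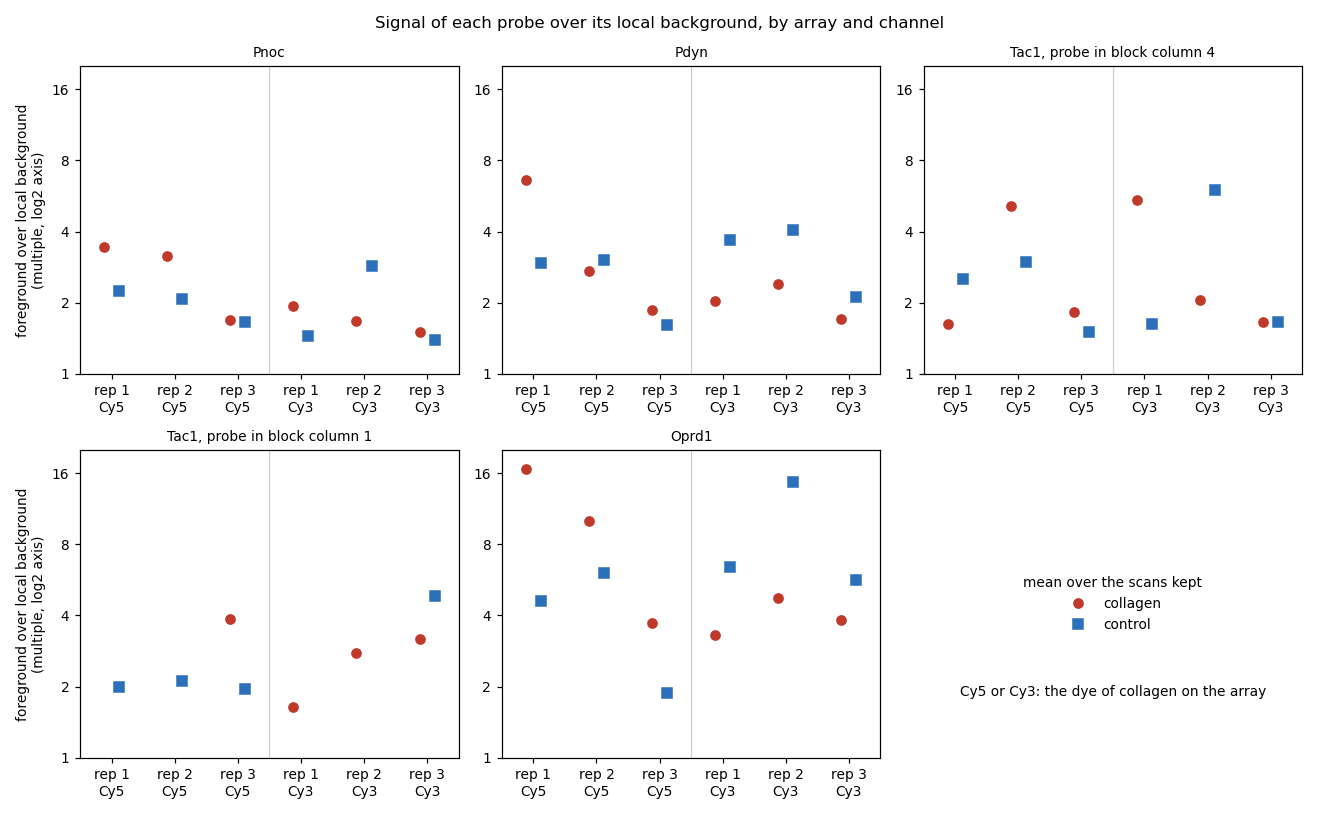
The y axis is the foreground as a multiple of local background, on a log2 axis, and the x axis the 6 arrays. Red circles are collagen and blue squares control, each the mean over the scans in which the channel was kept. Oprd1 is highest in the channel read as Cy5 on every array, and the Tac1 probe in the first block column has 1 channel on each array of replicates 1 and 2.

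Tac1 (Entrez Gene 21333) had a probe in block row 3, column 4 (probe 2392) and another in block row 9, column 1 (probe 6899). The first had log2 ratios of -0.85, 0.65 and 0.65 in replicates 1, 2 and 3 with collagen in Cy5, and of 5.96, -0.33 and -0.03 with collagen in Cy3. It was higher with collagen on 3 arrays and lower on 3, and in each of replicates 1, 2 and 3 the arrays of the replicate had opposite signs. Its mean of 1.01 ± 0.48 (SE, n = 3) came from 2.56, 0.16 and 0.31 in replicates 1, 2 and 3.

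The replicate 1 value of Tac1 rested on 1 scan of each array. Both channels were kept in 1 of 3 scans on either array, and the remaining scans were rejected in at least 1 channel. In the scan with collagen in Cy3, the spot covered 316 pixels, with 30503 per pixel in collagen over a background of 6851, and 482.5 in control over 782. In the scan with collagen in Cy5 it covered 157 pixels, with 251 per pixel in collagen over a background of 402, and 1206.5 in control over 749. Channel A, which held collagen on the first of these arrays and control on the second, was the brighter on both. The first array's block had a median ratio of 2.87, and 1 of the 123 other spots was higher than Tac1. With loess within blocks the value was 0.41 on that array, and the mean of the 3 replicates was 0.07.

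The other Tac1 probe gave a ratio in replicate 3 only. Its log2 ratio was -0.21 with collagen in Cy5 and -0.33 with collagen in Cy3, from 3 scans each, whereas the first probe read 0.65 and -0.03 there. The quality score of the second probe had medians of 0.457 and 0.711 on those arrays, against 0.0778 and 0.103 for the first. Scans of the first probe with collagen in Cy5 read -0.05 and 1.34, so that its 0.65 averaged 2 unlike values. The probes of this gene thus differed in sign on 1 array of replicate 3, and the second had a ratio in 1 replicate. In replicates 1 and 2 the second probe was kept in channel A alone. Collagen was seen there with collagen in Cy3 and control with collagen in Cy5, so that its detection went with the channel.

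Oprd1 (Entrez Gene 18386, probe 3961), in block row 5 and column 3, had both channels in all 18 scans. Its log2 ratio was 0.55, 0.26 and 0.25 in replicates 1, 2 and 3 with collagen in Cy5, and -1.60, -0.31 and -0.46 with collagen in Cy3. The sign followed the dye on every array, with no overlap between the orientations. Channel B was higher than channel A on 6 of 6 arrays, as it was for 212 of 2316 tested probes (9.15%). Averaging the orientations gave -0.22 ± 0.18 (SE, n = 3), with -0.53, -0.03 and -0.11 in replicates 1, 2 and 3.

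The same order stood in the signals of Oprd1. Foreground was 16.7, 10.1 and 3.71 times background in collagen and 4.58, 6.04 and 1.88 times in control, in replicates 1, 2 and 3 with collagen in Cy5. With collagen in Cy3 it was 3.29, 4.76 and 3.82 times in collagen and 6.43, 14.7 and 5.65 times in control. Scans of 1 array differed by a median of 0.06, so the change of sign was larger than the scan error in replicates 1 and 2. On the array of replicate 3 with collagen in Cy5 the scans ranged from -0.12 to 0.43. On the collagen-Cy3 array of replicate 1 the ratio before normalization was -0.32, and the curve of the whole array moved it by -1.28. With loess within blocks it was -0.13 there, and the mean of Oprd1 turned to 0.09.

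**Figure D3:**
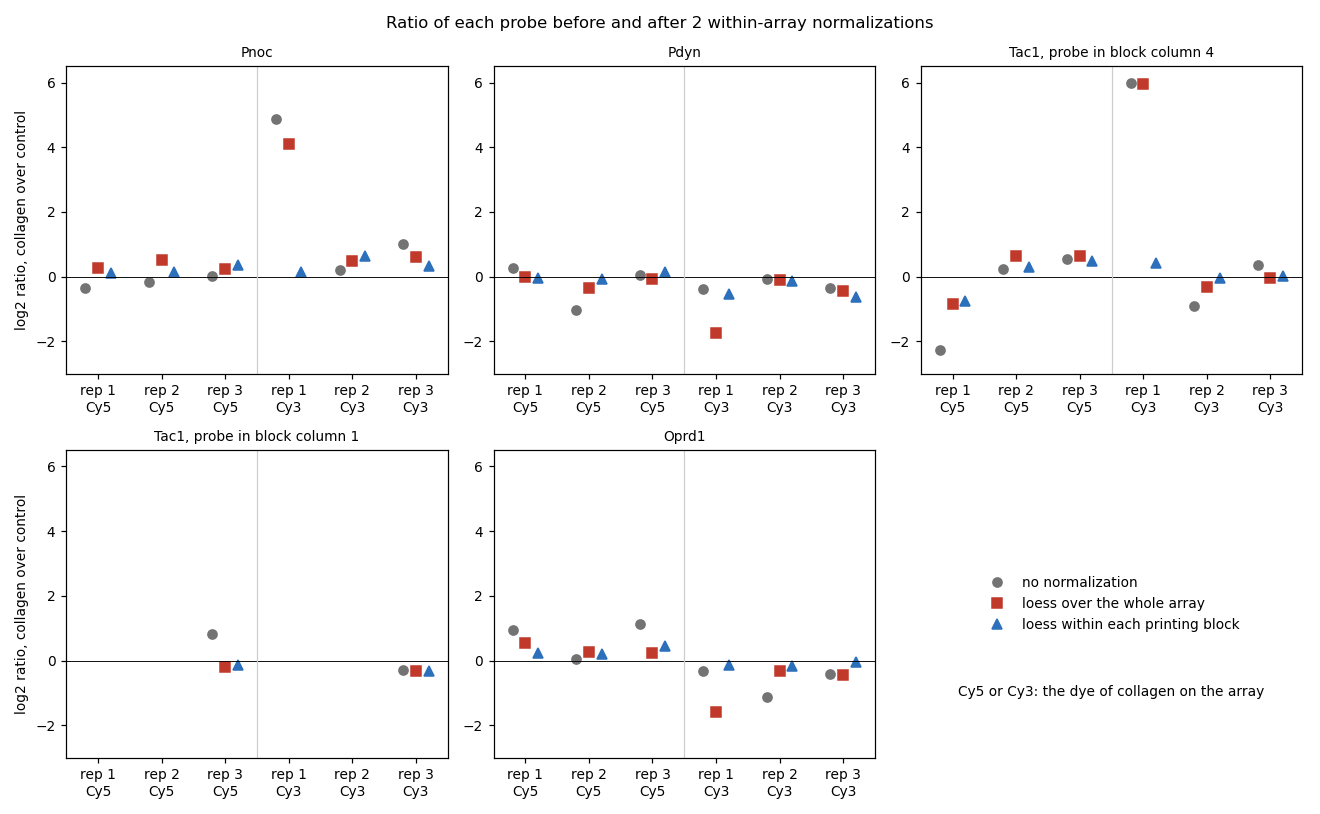
The y axis is the log2 ratio of collagen over control and the x axis the 6 arrays. Grey circles are without normalization, red squares with loess over the whole array and blue triangles with loess within each printing block. On the collagen-Cy3 array of replicate 1 the whole-array and within-block values of the 4 tested probes differ most, at 4.11 and 0.16 for Pnoc and -1.73 and -0.54 for Pdyn.

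The probes whose 6 array ratios were most like those of each gene were found among 2129 other tested probes with 1 gene symbol. For Pnoc they were 1700029F12Rik, Dph6 and Smarcd1 (Pearson r of 0.9973, 0.9963 and 0.9961 over 6 arrays), and for Tac1 Olfr71, Cd151 and Rida (0.9981, 0.9972 and 0.9937). All 6 of these lay in the fourth block column. Of the 219 probes with r above 0.9 to Pnoc, 177 were in that column, and of the 194 for Tac1, 153 were, where the column held 591 of the probes compared. Without the collagen-Cy3 array of replicate 1, the r of Pnoc with its 3 nearest probes was 0.87, 0.52 and 0.63, and that of Tac1 0.98, 0.95 and 0.88. For Pdyn the nearest were Caml, Vti1b and Arl3 (0.9974, 0.9966 and 0.9964) and for Oprd1 Enoph1, Irf3 and Ppid (0.9964, 0.9963 and 0.9945), none of them in the fourth column. Without the same array these values were 0.98, 0.95 and 0.97 for Pdyn and 0.99, 0.98 and 0.98 for Oprd1. As many as 431 probes exceeded 0.9 with Pdyn, 135 of them in its own column, which held 517 of those compared. For Oprd1 255 did, 100 of them in its own column of 648. These points share arrays, dyes and the normalization curve.

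Few other genes of these pathways could be measured. The 72 further genes looked for were precursors, receptors, enzymes that process or break down peptides, and genes of receptor signalling. Of these, 39 were found on the array and 10 had a ratio on all 6 arrays, from 11 probes. All 10 were enzymes or signalling genes. With limma, 0 of the 10 passed an adjusted p of 0.05 in either direction, and 1, Cpn2, had an unadjusted p under 0.05. Of the 11 probes 4 were higher and 7 lower with collagen, with a median of -0.02, and 5 changed sign without replicate 1. Of all tested probes 66.3% were lower, and 845 (36.5%) changed sign without replicate 1. No tested probe of another receptor for these peptides was among them. Oprl1, the nociceptin receptor, had a ratio on 5 arrays, Tacr3, the neurokinin B receptor, also on 5, and Tacr1, the substance P receptor, on 4.

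Of the enzymes of peptide maturation 2 were measured, both with a negative mean log2 ratio, as 66.3% of all tested probes had. Pam, which amidates peptides such as substance P, was at -0.34 ± 0.22 (SE, n = 3), and Qpct, which forms pyroglutamate at peptide ends, at -0.38 ± 0.17. Pam was lower on 3 of 6 arrays and Qpct on 5. Among the enzymes that break down peptides, Cpn2, the regulatory subunit of carboxypeptidase N, was at 0.97 ± 0.32 and also lay in the fourth block column. Dpp3, a peptidase that cleaves enkephalins, was at -0.25 ± 0.27 and Prep, prolyl endopeptidase, at 0.06 ± 0.18. The 2 probes of Thop1, an oligopeptidase, were at -0.0068 and -0.16.

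The measured signalling genes had means of both signs. Gnb1, a G protein beta subunit, was at -0.02 ± 0.17 and Rgs19, which speeds the turn-off of inhibitory G proteins, at 0.12 ± 0.17 (SE, n = 3). Gnaq and Gna11, the alpha subunits through which tachykinin receptors activate phospholipase C, were at 0.04 ± 0.17 and -0.26 ± 0.18. Each of these 4 genes had replicates of both signs.

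**Figure D4:**
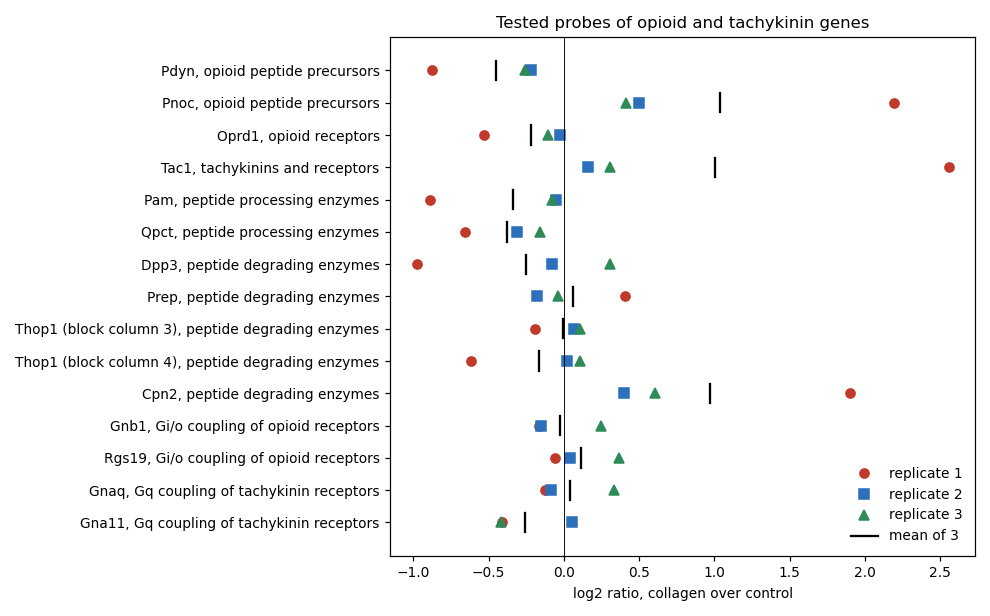
The x axis is the log2 ratio of collagen over control, and each line is a tested probe of the opioid and tachykinin lists. Symbols are replicates 1, 2 and 3, and black bars their mean. Replicate 1 is the farthest from 0 for 11 of the 15 probes, as for 69.9% of all tested probes.

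Under the other settings the mean of Pnoc ranged from 0.29 to 1.74 and that of Pdyn from -0.75 to -0.15, without a change of sign. That of Tac1 ranged from -0.13 to 1.87 and that of Oprd1 from -0.79 to 0.35. The widest errors were those of Pnoc and Tac1 on arrays with collagen in Cy3, at 1.74 ± 0.79 and 1.87 ± 1.31 (SE, n = 3).

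**Figure D5:**
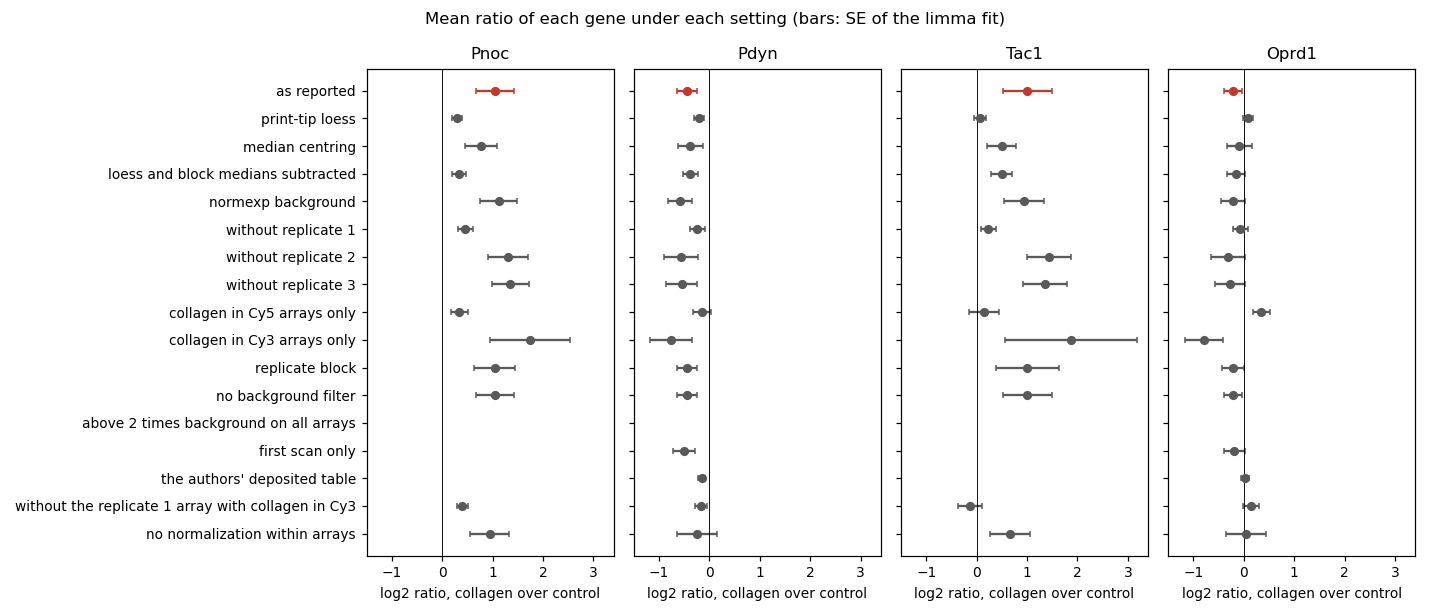
The x axis is the mean log2 ratio of collagen over control and each line a setting, with bars for the SE of the limma fit. A value is missing where the gene had no ratio on the arrays the setting needs or did not pass its background minimum. With a minimum of 2 times background in both channels on all arrays, none of the 4 genes passed. Pnoc stays between 0.29 and 1.74 and Pdyn between -0.75 and -0.15, while Tac1 and Oprd1 lie on both sides of 0.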

How the data were processed

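The deposited scan files gave, per the file headers, background-subtracted intensities summed over the pixels of a spot, local background, spot area in pixels, a saturation factor (a fraction of 0 to 1) and quality scores. A rejected channel was set to 0. The quantification program is not given in the sources used here, and the authors' deposited table held 1 log ratio per probe and array, read as natural log (ln), a scale that is inferred. Its columns had medians of -0.018 to 0.0015 and correlated at 0.671 to 0.904 with the ratios smoothed within blocks, so its direction is inferred too. Rows of the scans, sorted by block and spot, gave the probe order.

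Log2 ratios of spots with both channels were smoothed by loess (span 0.3) in each scan. Scans were averaged, without those that had saturated pixels if an unsaturated one existed. The sign was set to collagen over control before both arrays of a replicate were averaged. A probe needed a ratio on 6 arrays and a foreground above 1.5 times background in 1 channel on at least 4 arrays, which removed 0 probes. Means of 3 replicates were tested against 0 with limma 3.58.1 in R 4.3.3 (two-sided, Benjamini-Hochberg, threshold 0.05), after a check on simulated data, and the SE of each gene is from that fit. Normexp was planned only as an alternative, since the intensities were already corrected. Replicate numbers came from the titles and mark 2 arrays of 1 biological replicate, per the series design. Because nothing says that replicates are separate animals, p-values reflect the spread among these samples, which may be technical. Tables and figures were made with pandas 2.3.3 and matplotlib 3.10.9. The genes and lists were chosen with earlier results of these data known. Named were the 4 genes, the 3 probes most like each and the tested probes of the lists. Of the 10080 probes, 9066 had 1 symbol, 12 several and 1002 none, and 8977, with all 5 probes of the 4 genes, matched RefSeq genes of assembly GRCm38.p6 by Entrez identifier.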

Additional observations from a re-analysis of the deposited data

Results flagged for a closer look

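Values of 6 arrays were looked at for 1 array whose gap to the nearest exceeded 0.625 of the range, and 5 of 6 sets of values had one. By chance about 1 in 20 groups would, a rate that cannot be applied here because the genes were picked by these values and the arrays are paired. On the collagen-Cy3 array of replicate 1, Pnoc read 4.11, Tac1 (probe 2392) 5.96 and Pdyn -1.73 on the log2 scale, and the spread of ratios was 1.66 (SD). The count of spots with a ratio was highest, at 8562, on the collagen-Cy3 array of replicate 3.

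For Oprd1 the ratio of collagen over control was positive on the 3 arrays with collagen in Cy5 and negative on the 3 with collagen in Cy3, a difference of means of 1.14 on the log2 scale that was not tested.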

How the results depend on the processing

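The count of probes past the adjusted threshold was 0 under every alternative run except with collagen in Cy5 arrays only, where it was 27 of 2834 (1 higher, 26 lower). On arrays of 1 dye orientation, collagen and dye cannot be told apart. Counts from the Cy5 or Cy3 arrays only, here and below, therefore give no direction of collagen. With an unadjusted p under 0.05 the count was 25, against 53 with median centring, 40 with block medians subtracted, 47 with normexp, 402 and 104 with collagen in Cy5 and in Cy3 arrays only, 4 above 2 times background, 15 in the authors' table and 61 without the collagen-Cy3 array of replicate 1. Leaving out 1 replicate gave 89 to 207. The split between higher and lower was 14 to 11, but 12 to 41 with median centring, 12 to 18 with print-tip loess, 11 to 29 with block medians subtracted, 24 to 3 without normalization, 12 to 20 with the replicate block, 38 to 51, 87 to 14 and 198 to 9 without replicates 1, 2 and 3, and 187 to 215 and 97 to 7 with collagen in Cy5 and in Cy3 only. Pdyn and Pnoc kept their signs in 15 and 13 alternatives. Among these, dropping the background minimum and using the replicate block return the same mean, so they could not turn a sign. The genes were picked with their ratios known, so these counts are no test. Tac1 turned to -0.13 without the collagen-Cy3 array of replicate 1. Oprd1 turned to 0.089 with print-tip loess, 0.35 with collagen in Cy5 only, 0.030 in the authors' table, 0.14 without that array and 0.042 without normalization, and moved to -0.79 with collagen in Cy3 only. The cause was not tested. Without replicate 1 Pnoc was at 0.46, Pdyn at -0.24, Tac1 at 0.23 and Oprd1 at -0.07, and leaving out a replicate gave up to 1.35, -0.57, 1.43 and -0.32. With the replicate block, 0 probes passed, 32 had an unadjusted p under 0.05, and the means were the same, with Pnoc at 1.04 ± 0.41 (SE). Pnoc and Tac1 had no value in the first scan only or in the authors' table on 6 arrays, and none of the genes had one above 2 times background. Foregrounds of at most 1.82 times background in replicate 3 limit Pnoc and Tac1 probe 2392.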
